A study of Mus musculus with 4 samples.

Results

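The 8 genes described here encode the ligands and receptors of 2 growth factor systems, platelet-derived growth factor (PDGF) and hepatocyte growth factor (HGF). They were taken as every non-control probe whose gene name in the scanner files was Pdgfa, Pdgfb, Pdgfc, Pdgfd, Pdgfra, Pdgfrb, Hgf or Met, which gave 19 of the 41174 probes on the array. The rule for probes used gene names and no measured value, but the 8 genes were proposed with earlier results of these data known. Each array held RNA from full-thickness dorsal skin of C57BL/6 male mice 42 days old, with follicles labelled telogen (the hair cycle's resting phase). The cKO mice lacked the fibroblast growth factor gene Fgf18 in epithelial cells positive for keratin 5, and the WT mice were plain C57BL/6. For either genotype, polyA RNA of 3 mice was combined in 1 pool, and 2 Cy3 arrays were run from it, so the arrays of a group are technical duplicates. Every SD, interval and p-value below measures the spread between duplicate arrays, compares 2 pools and says nothing of the spread between mice. The labels do not say whether the WT mice carried the Cre driver or the unrecombined Fgf18 allele.

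PDGF ligands are secreted as dimers of A, B, C or D chains. They act through 2 receptor tyrosine kinases, PDGFR alpha, which binds A, B and C chains, and PDGFR beta, which binds B and D chains. In skin the alpha receptor marks dermal fibroblasts, dermal papilla cells and adipocyte precursors, and the beta receptor also marks the pericytes of small vessels. HGF is secreted by mesenchymal cells as an inactive precursor, is cleaved by serine proteases, and acts through the receptor tyrosine kinase MET on epithelial cells and melanocytes. Both systems are known to pass signals between the follicle and the dermis around it. The study asked for target genes of Fgf18 in resting skin.

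Probes are 60 bases long and each reports only the stretch of transcript it matches. For 5 genes with more than 1 probe, 1 probe is printed to show where the results rest, picked after the values were seen. These are the only Pdgfra probe called, the Pdgfd probe with unequal WT arrays, the Pdgfa probe with overlapping groups, the Met probe farthest upstream, and 1 of the 4 Hgf probes, all undetected. The sequences are those of the scanner files, 5′ to 3′, with mm9 positions.
Pdgfra, A_52_P264283, chr5:75559613-75559672, plus strand: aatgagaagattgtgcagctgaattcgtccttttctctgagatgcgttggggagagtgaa
Pdgfd, A_52_P264790, chr9:6376926-6376985, plus strand: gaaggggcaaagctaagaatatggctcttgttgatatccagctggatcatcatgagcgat
Pdgfa, A_51_P370099, chr5:139455132-139455191, minus strand: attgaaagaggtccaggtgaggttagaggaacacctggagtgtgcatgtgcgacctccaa
Met, A_51_P103929, chr6:17503299-17503358, plus strand: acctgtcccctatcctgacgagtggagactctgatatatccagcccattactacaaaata
Hgf, A_52_P435080, chr5:16121326-16121385, plus strand: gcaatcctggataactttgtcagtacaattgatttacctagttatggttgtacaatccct
Each of these 5 sequences has at least 1 forward reading frame without a stop codon, and their GC content lies between 36.7% and 51.7%. No mm9 gene models were used, and the part of the transcript that a probe matches (exon, UTR) is left unstated.

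None of the 7 genes that could be tested was called different between the pools, while 1 of their 14 tested probes was called lower. A probe was called at a limma adjusted p (Benjamini-Hochberg over 26070 probes) under 0.05 together with a change of at least 1.5-fold. By that rule 9.72% of all tested probes were called, 4.92% higher and 4.8% lower in cKO. Among all genes, each represented by its tested probe of highest mean, 10.4% were called, 5.64% higher and 4.8% lower. Of the 7 member genes, 5 had an unadjusted limma p under 0.05, against 61.2% of all genes. The adjusted p was under 0.05 for 5 of the 7, against 52.9% of all genes, and all 5 were lower in cKO, against 32% of all genes lower and 21% higher. With all 4 arrays kept, this count of 5 ranged from 2 without the background filter to 6. In the 6 with quantile normalization, Pdgfa was the added gene and was higher in cKO. Of the 14 probes, 8 had an adjusted p under 0.05 at any fold, against 50.3% of all probes. All 8 were lower in cKO, or 57.1% of the 14, against 31.1% of all probes lower and 19.2% higher. Pdgfb, Pdgfc and Pdgfra each gave a pair of the 8, and the difference from these shares was not tested. Of the 14, 13 had cKO and WT arrays that did not overlap, against 79.8% of all probes. The median log2 change of the 7 genes was -0.21, against -0.05 for all genes, with 6 genes lower and 1 higher in cKO, and 42.9% of all genes were higher. The median absolute change of the 14 probes, 0.19, was close to the 0.20 of all probes. In 12 of the 14 the 95% interval lay within 1.5-fold either way.

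**Figure D1:**
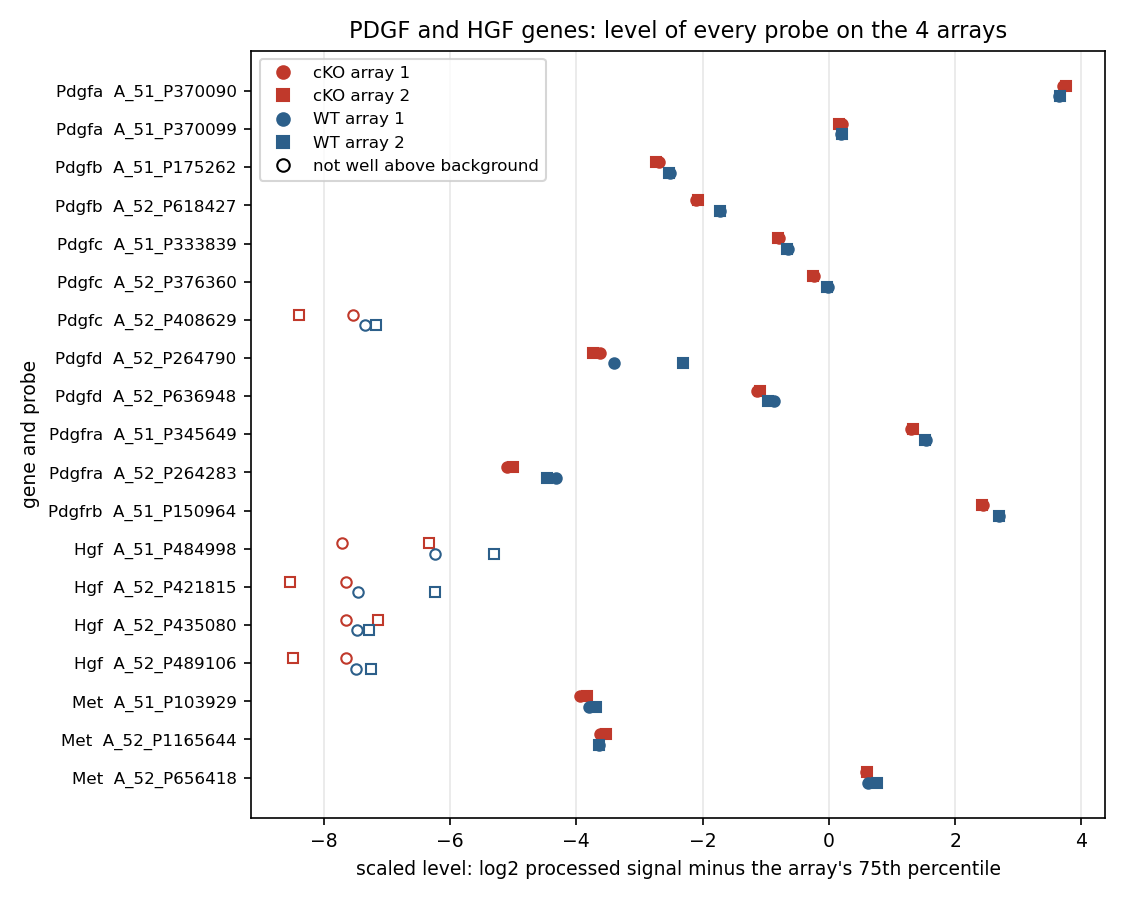
Scaled log2 level (processed signal over the array's 75th percentile) of each of the 19 probes on the 4 arrays, cKO in red and WT in blue, open symbols where neither array of the group was well above background. Most pairs of duplicates lie on top of each other, the second WT array stands apart for Pdgfd A_52_P264790, and all 4 Hgf probes are open on every array. Levels of different probes are not comparable.

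Pdgfa encodes the A chain, which the follicle epithelium and cells of the adipocyte lineage are known to make. Its probe A_51_P370090 (chromosome 5, 139453029 to 139453088) had processed signals of 18417 and 19612 in cKO and 15947 and 16616 in WT. After scaling, both cKO arrays lay above both WT arrays by at least 0.06, slightly more than the larger gap between duplicates (0.04), both on the log2 scale. The log2 change was 0.08 (SE 0.029, 95% interval -0.01 to 0.17, limma adjusted p = 0.099). It was 0.22 with quantile normalization, with an adjusted p of 0.014, or 0.016 after normexp background correction, and trend with robust moderation gave 0.025. In these 3 settings the limma p passed 0.05 and the fold stayed under 1.5. The other probe, A_51_P370099, had signals of 1628 and 1625 in cKO and 1459 and 1519 in WT, and after scaling the groups overlapped. Its log2 change was -0.01 (interval -0.11 to 0.08), with a sign that flipped under 2 alternatives.

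Pdgfb encodes the B chain, made by endothelial cells and needed to hold pericytes on vessels. Probe A_52_P618427 (chromosome 15, 79826327 to 79826386) had signals of 325.1 and 346.6 in cKO and 384 and 398.5 in WT. The cKO arrays were the lower pair, and the gap of 0.34 between the nearest arrays exceeded the 0.04 between duplicates. The log2 change of -0.36 (SE 0.029, interval -0.45 to -0.28, limma adjusted p = 0.0051) was 1.29-fold and so under the fold threshold. The second Pdgfb probe, A_51_P175262, gave -0.19 (interval -0.28 to -0.10) in the same direction. For this gene the 2 probes, 811 bases apart, differed by 0.17 in log2 change.

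Pdgfc and Pdgfd encode the chains that carry a CUB domain and must be cleaved before they bind a receptor. Pdgfc probe A_52_P376360 (chromosome 3, 81017572 to 81017631) had signals of 1193 and 1227 in cKO and 1266 and 1287 in WT. Its log2 change was -0.22 (interval -0.30 to -0.14, limma adjusted p = 0.01), and the probe 153 bases away, A_51_P333839, gave -0.14 (interval -0.21 to -0.06). After scaling, the cKO arrays of both probes were lower without overlap and the change was small. Before scaling, the groups of A_51_P333839 overlapped, with signals of 812.2 and 833.7 in cKO and 809.7 and 827.2 in WT. The other Pdgfc probe, A_52_P408629, designed on a RIKEN clone, was not well above background on any array, with signals from 4.34 to 9.12.

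Pdgfd was the ligand whose probes disagreed most. Probe A_52_P636948 (chromosome 9, 6378717 to 6378776) had signals of 640.5 and 682.5 in cKO and 698.8 and 674 in WT, so the groups overlapped before scaling. After scaling, the nearest arrays were 0.13 apart, against 0.10 between duplicates. Its log2 change was -0.20 (interval -0.34 to -0.05, limma adjusted p = 0.045). Probe A_52_P264790, printed above, had 113.7 and 109.1 in cKO but 120.9 and 264.7 in WT, so that 1 WT array was higher than the other by 1.08 on the scaled log2 scale. Its log2 change of -0.83 had an interval from -2.08 to 0.43 and an adjusted p of 0.19 by limma. Without WT replicate 2 it was -0.29 (adjusted p = 0.08), and without WT replicate 1 it was -1.37 and passed the call (adjusted p = 0.02). The size of this change thus rested on which WT array was used, and the mean of both probes gave -0.51 for Pdgfd.

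Both PDGF receptors were slightly lower in the cKO pool. Pdgfra, the alpha receptor, was measured by probe A_51_P345649 (chromosome 5, 75593888 to 75593947), which is printed 10 times on each array. The mean of its spots was 3440 and 3664 in cKO and 3683 and 3776 in WT, and the coefficient of variation over the 10 spots was 2.87% to 3.87%. The log2 change was -0.21 (SE 0.029, interval -0.30 to -0.13, limma adjusted p = 0.013), or 1.16-fold, with no overlap between groups. Pdgfrb, the beta receptor, has 1 probe (A_51_P150964), with signals of 7595 and 7775 in cKO and 8246 and 8534 in WT. Its log2 change was -0.27 (SE 0.025, interval -0.35 to -0.19, limma adjusted p = 0.0065), or 1.21-fold, and was -0.17 with normexp and quantile normalization and -0.20 with quantile normalization alone. Neither receptor reached 1.5-fold.

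The signal of the second Pdgfra probe, A_52_P264283, fell. It was 41.1 and 45.3 in cKO and 63.8 and 59.7 in WT, and every array was well above background. The groups were 0.54 apart at the nearest arrays, against 0.15 between duplicates, and the log2 change was -0.66 (SE 0.07, interval -0.87 to -0.45, limma adjusted p = 0.0079), or 1.58-fold. The probe lies 34275 bases from the other Pdgfra probe on the genome. These signals were close to the detection limit, since the lowest signals well above background were 33.5 and 18.5 in cKO and 33.4 and 41.1 in WT. The call was lost with normexp background correction and quantile normalization (-0.23, adjusted p = 0.031) and without cKO replicate 1 (-0.61, adjusted p = 0.053). The difference between the probes, 0.45 in log2 change, was not tested, and the mean of both gave -0.44 for Pdgfra (limma adjusted p = 0.0071), still under 1.5-fold.

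**Figure D2:**
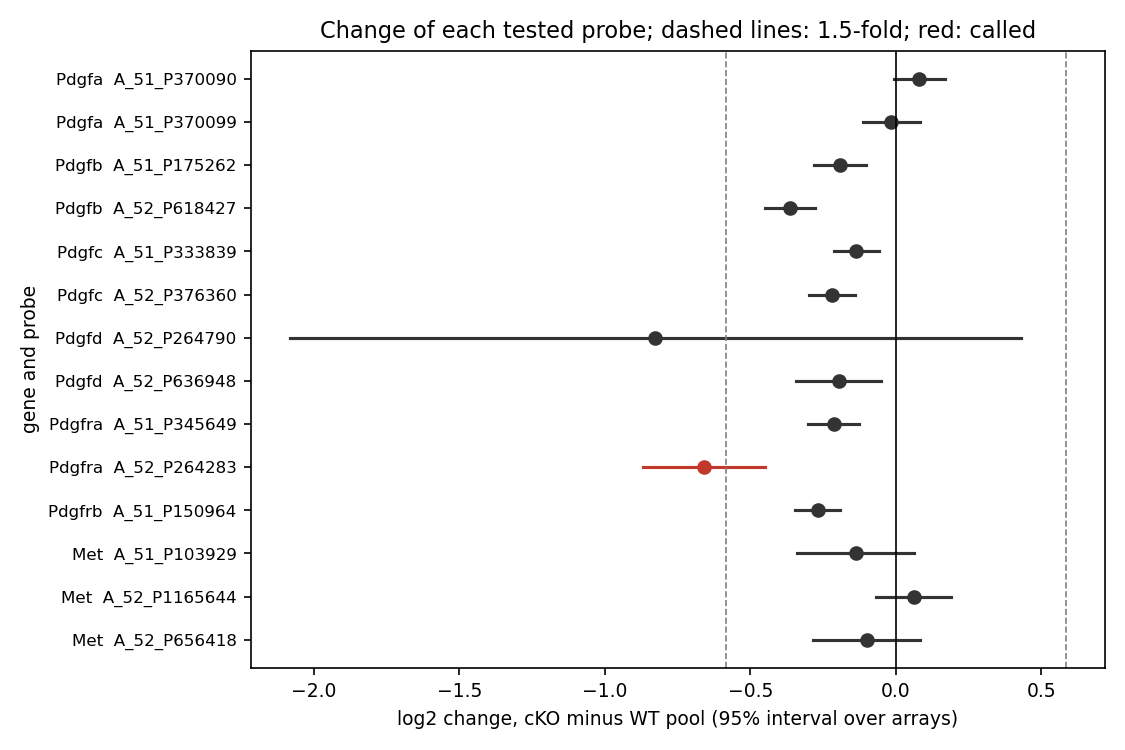
Log2 change of the 14 tested probes (cKO minus WT pool) with the 95% interval of the limma fit over 4 arrays, dashed lines at 1.5-fold. The second Pdgfra probe (red) is the only one called, 12 of the others have intervals inside the dashed lines, and the interval of Pdgfd A_52_P264790 runs from -2.08 to 0.43.

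Hgf was not detected in either pool. Its 4 probes on chromosome 5 had processed signals between 3.93 and 33.3, and none was well above background on any array. The highest, A_51_P484998, had signals of 6.74 and 18.1 in cKO and 16.8 and 33.3 in WT. The printed probe, A_52_P435080, had 6.97, 10.3, 7.17 and 8.47 on cKO 1, cKO 2, WT 1 and WT 2. No fold is given, because both groups lay below detection. A difference in Hgf was not detectable with these arrays, which does not show that the transcript was absent.

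Met, which encodes the HGF receptor, had 3 tested probes and none was called. Probe A_52_P656418 (chromosome 6, 17523765 to 17523824) had signals of 2115 and 2204 in cKO and 1960 and 2242 in WT, with a log2 change of -0.10 (interval -0.28 to 0.08, limma adjusted p = 0.25). The spread between the WT duplicates (0.15) exceeded the gap between groups (0.02). Probe A_52_P1165644, 579 bases away, had 113.9 and 125.8 in cKO and 101.9 and 106 in WT, with a change of 0.06 (interval -0.07 to 0.19). The printed probe A_51_P103929, 20466 bases from the first, had 91.1 and 102.5 in cKO and 91.1 and 101.7 in WT, with a change of -0.14 (interval -0.34 to 0.06). The 3 probes thus differed in sign, and each interval included 0.

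**Figure D3:**
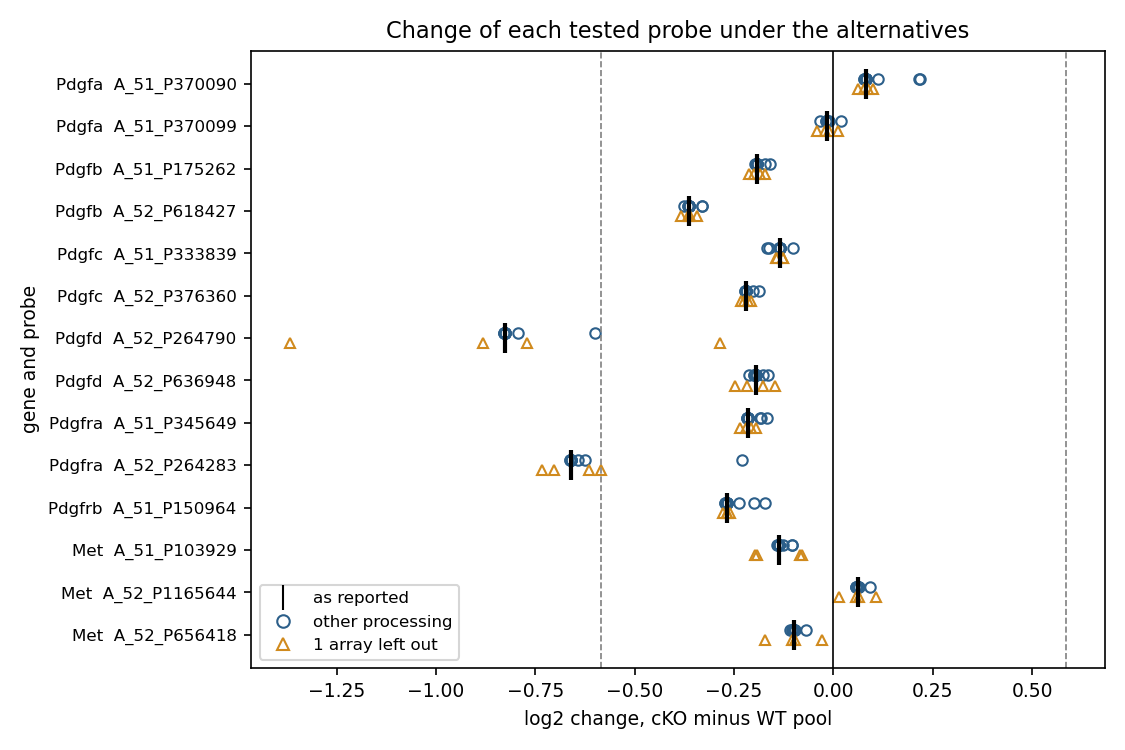
Log2 change (cKO minus WT pool) of the 14 tested probes as reported (black bar), under other processing (blue circles) and with 1 array left out (orange triangles), dashed lines at 1.5-fold. Most probes stay within a narrow band, while Pdgfd A_52_P264790 runs from -1.37 to -0.29 and Pdgfra A_52_P264283 from -0.73 to -0.23.

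The other genes of the pathways were taken from 6 lists. Of 119 such genes tested, 7 rose and 5 fell, or 10.1%, against 10.4% of all genes. In the list of proteases that cleave pro-HGF, their inhibitors and MET co-receptors, 3 of 14 rose and none fell (median log2 change 0.19), with 1 lower by the mean of each gene's probes. St14, which encodes the membrane protease matriptase, had signals of 5652 and 5855 in cKO and 3132 and 3358 in WT, and rose 1.61-fold (limma adjusted p = 0.0026). Spint1, which encodes the matriptase and HGF activator inhibitor HAI-1, had 7471 and 7801 in cKO and 4114 and 4219 in WT, and rose 1.66-fold (limma adjusted p = 0.0019). In both genes the groups were far apart compared with the duplicates, and both tested probes of each were called. F12, which encodes coagulation factor XII, had 69 and 67.7 in cKO and was not well above background in WT. Its test therefore came through the cKO pool. With only probes well above background on all 4 arrays, 2 genes of this list were called higher, and 11 over the 6 lists were called. F12 was 1.67-fold higher with the WT level set to the lowest signal well above background, which is not a strict lower bound. The list also held Hgfac, the HGF activator itself (0.18, adjusted p = 0.15), and Plxnb1, a MET partner (0.57, adjusted p = 0.0058), neither called and both named after their values were seen.

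Among 12 genes that process, hold or present PDGF, St14 alone rose and none fell (median -0.02), with 2 higher under quantile normalization, with or without normexp, and 2 higher and 1 lower with the mean of each gene's probes. Among 17 related receptors and ligands, Vegfb, a VEGF family member, fell 1.5-fold and none rose (median -0.18). Its signals were 2753 and 2824 in cKO and 3707 and 3890 in WT, and the change of -0.59 missed the fold threshold under 6 alternatives, among them quantile normalization (-0.56), without cKO replicate 2 (-0.58) and without WT replicate 2 (-0.58). Of 28 adaptors and effectors of activated receptors, 1 rose and 1 fell (median -0.04). Pik3r3, a regulatory subunit of PI3-kinase, rose 1.9-fold by its brightest probe, from 609.1 and 707.2 in WT to 1367 and 1389 in cKO. Its 3 probes ranged from 0.35 to 0.93, and with their mean the gene was not called (0.57). Plcg1, a phospholipase that binds both receptors, fell 1.81-fold by 1 probe (184.2 and 209 in cKO, 332.9 and 312 in WT) while its other probe gave 0.16, and the mean was not called (-0.35). In neither gene was more than 1 probe called.

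Of 23 genes that dampen receptor signals, 1 rose and none fell (median 0.00). Errfi1, an inhibitor of EGF receptor signalling, rose 2.5-fold, with signals of 14888 and 15460 in cKO and 5438 and 5546 in WT (limma adjusted p = 0.00094). Of 29 early response genes, which growth factors such as PDGF induce in fibroblasts, 2 rose and 3 fell (median 0.05). Hbegf, an EGF receptor ligand, rose 1.62-fold, and Has1, a hyaluronan synthase, 1.63-fold. The chemokine gene Ccl7 fell 1.62-fold, from 1646 and 1744 in WT to 1150 and 1164 in cKO, Fosb, an AP-1 subunit, fell 1.73-fold, and Has2, another hyaluronan synthase, had -0.62 and was the remaining call. Fosb and Has1 were dim and were not called with normexp and quantile normalization (-0.43 and 0.46), without cKO replicate 1 (-0.76 and 0.71) or without cKO replicate 2 (-0.81 and 0.69). Counts of so few calls moved with the setting: the early response list had 3 higher and 5 lower without WT replicate 2, 1 higher and 1 lower with normexp and quantile normalization, and 1 higher without cKO replicate 1.

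**Figure D4:**
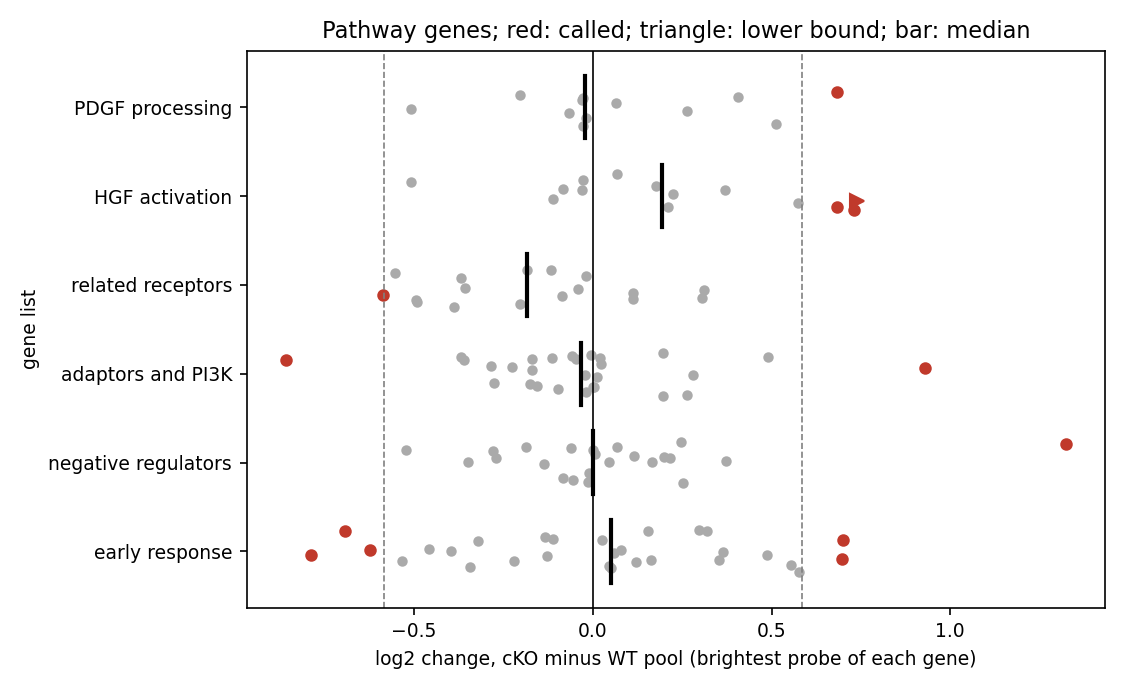
Log2 change (cKO minus WT pool) of pathway genes in 6 lists, each by its brightest probe, called genes in red, black bars at the list medians. The triangle (F12), labelled lower bound, has the WT level set to the lowest signal well above background. F12 was tested through the cKO pool. The medians lie between -0.18 and 0.19, and called genes stand on both sides of the early response and adaptor lists and only on the higher side of the HGF activation list.

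Lists of markers for cells that carry the PDGF receptors or make the B chain differed in direction. Over all genes, 5.64% rose, 4.8% fell, 52.9% had an adjusted p under 0.05 and the median log2 change was -0.05. Of 18 dermal fibroblast markers, 2 fell, 1 rose and 15 were not called. Of these 18, 13 had an adjusted p under 0.05, and the median was -0.23 beside the -0.21 of Pdgfra. Of 16 dermal papilla markers, 5 rose and 1 fell, with a median of 0.29, while their summed level was 13.4 and 13.3 in cKO and 14.1 and 13.9 in WT. Of the 16, 3 (Hhip and Cntn1, which rose, and Corin, not called) were undetected in WT and passed the filter through the cKO pool. With their WT level set to the lowest signal well above background, Hhip (1.13), Cntn1 (1.21) and Corin (0.64) still lay above 0.29. The median could therefore not move, and a median without these 3 was not computed. The summed scaled level of the fibroblast list was 944 and 949 times the 75th percentile in cKO and 1050 and 1140 times in WT. Of 13 pericyte and smooth muscle markers, 3 fell and none rose, with a median of -0.27 beside the -0.27 of Pdgfrb. Their summed level was 97 and 96.8 in cKO and 139 and 142 in WT. Acta2 was the brightest gene of that list (mean scaled log2 level 5.98, the next 3.25) and makes up much of this sum. Of 13 endothelial markers 2 fell (median -0.29, summed level 27.4 and 27.5 against 34 and 34.3), and of 13 adipocyte markers 4 fell (median -0.28, summed level 504 and 511 against 556 and 578). Most markers of each list were not called. All markers of these lists with a probe were tested, except Sox2 and Rspo3 of the dermal papilla list, which were not well above background on both arrays of either pool. Called among them were Lum (-0.63) and Dpt (0.77), dermal matrix proteins, Acta2 (-0.76) and Des (-0.68), filament genes of contractile cells, Emcn (-0.79) and Lyve1 (-0.73) of blood and lymphatic endothelium, and the adipocyte genes Gpd1 (-1.26) and Lep (-0.97). The 4 probes of Acta2 ranged from -0.76 to 0.02, and its call was lost with their mean (-0.20) and with quantile normalization (-0.53). The call of Lum was lost with quantile normalization (-0.45, or -0.43 after normexp) and that of Lyve1 with the mean of its probes (-0.55). The part of these cell types in the changes of Pdgfra, Pdgfrb and Pdgfb was not tested. In bulk skin, fewer cells of a type and less RNA per cell cannot be told apart.

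**Figure D5:**
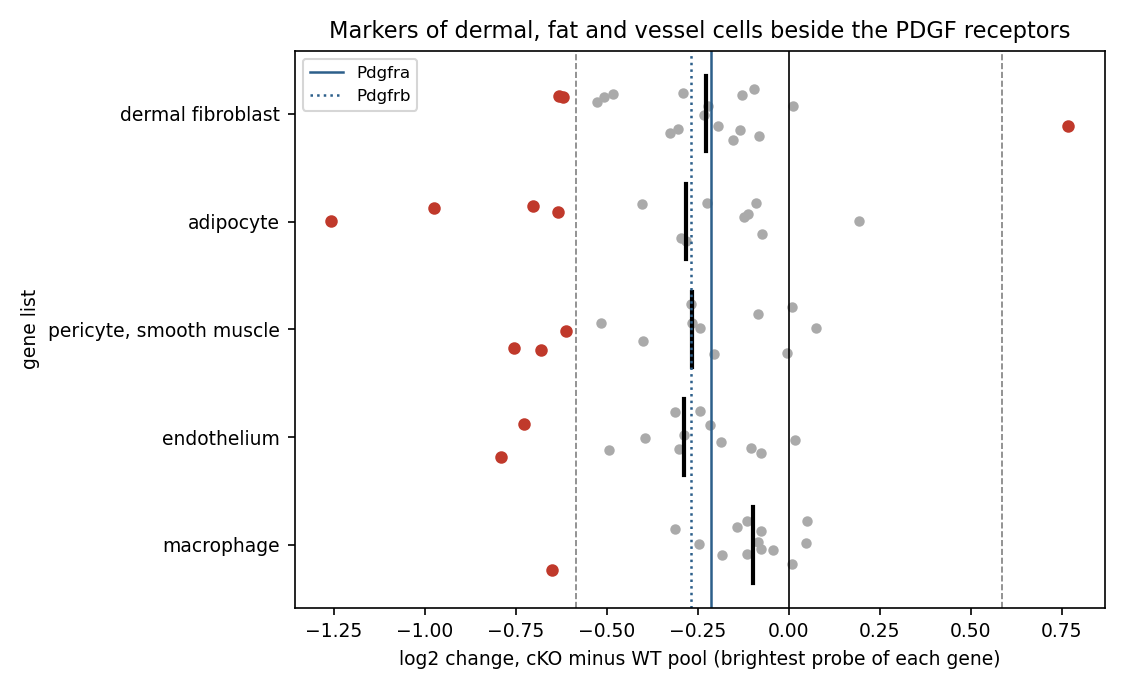
Log2 change (cKO minus WT pool) of markers in 5 cell type lists, called genes in red and black bars at the medians, with the changes of Pdgfra (-0.21, solid line) and Pdgfrb (-0.27, dotted line). The receptor lines fall between the medians of the 5 lists drawn, which run from -0.29 (endothelium) to -0.10 (macrophage). The dermal papilla list, with a median of 0.29, is not drawn.

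Several facts of the whole arrays frame these values. The 75th percentile of signal ran from 1271 to 1453 over the 4 arrays, and 62.1% to 69.1% of their spots passed the background test. Fgf18 itself gave a log2 change of -0.33 (limma adjusted p = 0.0053) and was not called, in whole skin and with a probe whose place relative to the deleted part is not known. Genes of the growing hair follicle were far higher in the cKO pool, where 20 of 21 hair matrix and shaft markers rose and their summed level was 368 and 365 against 6.46 in both WT arrays, so the cKO skin carried transcripts of growing follicles although it was labelled telogen. Of the proliferation markers 15 of 17 rose, and of the melanocyte markers 8 of 11. Undetected in WT, and tested through the cKO pool, were 5 of the hair markers and 1 of the melanocyte markers. Another melanocyte marker, Trpm1, was well above background on 1 WT array only and was also tested through the cKO pool. Of the skeletal muscle markers 7 of 16 fell, and 2 of 10 Schwann cell and nerve markers. With the 4.8% lower and 5.64% higher of all genes as background, 1 of 14 macrophage markers fell and 1 of 12 basal epidermis markers rose. Of 13 differentiated epidermis markers 2 rose and none fell, yet their median log2 change was -0.22. The summed level of that list was 652 and 638 in cKO and 762 and 822 in WT. The part of the hair matrix, proliferation, melanocyte and dermal papilla markers in the values of Hgf, Met and the HGF-activating proteases was not tested.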

How the data were processed

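Per the file headers, Agilent Feature Extraction 10.7.3.1 read the scans, with spatial and multiplicative detrending. Its processed intensity, as deposited, was used. Per the labels, 200 ng RNA was labelled with Cy3. The deposited value table was a linear ratio, that intensity divided by 1 number per array (medians 0.112 to 0.114), and served as an alternative. The tool behind it was not given in the sources used. The 4 arrays shared 1 slide and 1 scan time.

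The log2 intensity minus the array's 75th percentile was averaged over the spots of a probe, without control spots and outlier spots (74 to 143 per array). No spot was saturated. Probes well above background on both arrays of a group (26070) were fitted with limma 3.58.1 in R 4.3.3, two-sided, without covariates. Named were all members, of each pathway list up to 4 called genes of largest change, of cell type lists up to 2, and Fgf18. Protein sequences were not used here. Genes were named through RefSeq tables of GRCm38.p6 (26690 of 41174 probes by accession), and all 19 member probes kept their name. Members and lists were chosen with earlier results of these data known. On simulated data for cKO against WT over 26070 probes, the rule recovered 26.9% of 67 probes set at 1.5-fold, 80.6% of 67 at 2-fold and 92.4% of 66 at 4-fold. It made 1 false call. A probe set at 1.5-fold lies on the rule's own fold threshold, which limits its recovery. Far fewer probes were changed here than the 50.3% of real probes with a limma adjusted p under 0.05. These shares may therefore not hold for the real arrays.

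Same-numbered arrays did not deviate together (r = -0.0196 across probes), so the number was not taken to pair arrays. Alternatives were other backgrounds, scalings and filters, 1 probe or the mean of probes a gene, the authors' values, outlier spots kept, trend with robust moderation, a replicate block, and each array left out. Plots used pandas 2.3.3 and matplotlib 3.10.9 in Python 3.11.15.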

Additional observations from a re-analysis of the deposited data

How the results depend on the processing

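None of the 7 tested genes was called by its brightest probe under any of the 16 alternatives run. The number of called member probes, 1 as reported, was 0 with normexp and quantile normalization and ranged from 0 to 2 when 1 array was left out (0 without cKO replicate 1, 2 without WT replicate 1). Probes called over the whole array numbered 2535, and 1520 with normexp and quantile normalization. The median change of the 7 genes, -0.21, was -0.17 with normexp and quantile normalization, -0.18 when the 75th percentile was taken over probes detected on every array, and -0.27 with the mean of probes. Pdgfa probe A_51_P370099 changed sign with that percentile (0.018) and when 1 array was left out, from -0.042 without cKO replicate 1 to 0.012 without cKO replicate 2. Scalings moved the median of all probes by at most 0.03 on the log2 scale. With a replicate block, 2449 probes and 1 member probe were called and no member call changed. The cause of these differences was not tested. Pathway calls stayed between 9 and 16, and marker calls between 65 and 74. Alternatives fitted over genes give no count of probes. The design holds 1 pool per genotype, so a difference between mice could not be tested under any setting. Simulated probes set at 1.5-fold, on the rule's own fold threshold, were recovered in 26.9% of cases, a share that may not hold for the real arrays.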
